A study of Mus musculus with 16 samples.

Results

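The genes described here are 37 mouse type I interferon stimulated genes, a set given by symbol as known members of the family. All 37 had a row among the 23609 genes of the table, and all 37 were among the 21034 genes that passed a filter on low values (a mean normalized value of at least 10). They were examined in primary mammary tumors of mice with and without a gene trap in *Resf1*, to ask if a lower level of *Resf1* goes with a higher level of interferon stimulated RNA.

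Total RNA was sequenced from mammary tumors of 2 groups of littermates, and the values of 5 wildtype and 5 gene trap tumors were used, 1 column per tumor. All of these mice carried MMTV-PyMT, the polyoma middle T antigen under the MMTV promoter, which is active in mammary epithelium, and they came from a cross of the FVB transgenic strain with C57BL/6 mice. Wildtype mice carried both intact copies of *Resf1*, and gene trap mice were Resf1 +/-, with a lentiviral trap that sits in the first exon of one copy, truncates its message and expresses an EGFP-cre fusion. The labels give no age, and no treatment was applied.

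Type I interferons (the interferon alpha family and interferon beta) are secreted proteins that bind the receptor pair IFNAR1 and IFNAR2 on the same or neighbouring cells. The receptor's kinases JAK1 and TYK2 then activate a complex called ISGF3, with STAT2 and IRF9 among its subunits, that binds a short DNA element, the interferon stimulated response element (ISRE), before its target genes. Cells make these interferons when sensors such as RIG-I, MDA5 or cGAS meet viral nucleic acids or RNA and DNA of a cell's own retroelements. In embryonic stem cells RESF1 is known as a partner of the SETDB1 histone methyltransferase in the silencing of such elements. In breast cancer cell lines with less *Resf1*, the paper reported no difference in the endogenous elements that it measured.

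The letters of the element are shown for members that held it before the start and whose values are given in full or that stand for a family. Promoters were taken from RefSeq (build GRCm38.p6, 250 bases before and 50 after each gene's start), and 28 of the 37 genes had an entry. The others were *Usp18*, *Oas2*, *Mx1*, *Mx2*, *Dhx58*, *Parp9*, *Parp14*, *Ifi27l2a* and *Rtp4*. Each line gives 30 bases upstream of the start, read 5′ to 3′ on the strand of the gene, and the capitals mark the ISRE core GAAANNGAAA, read on either strand, so that cores on the opposite strand appear as their reverse complement.
*Isg15*, minus strand, chr4:156200871-156200900: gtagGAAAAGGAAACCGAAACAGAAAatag
*Ifit1*, plus strand, chr19:34640794-34640823: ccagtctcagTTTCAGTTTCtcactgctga
*Ifit3*, plus strand, chr19:34583397-34583426: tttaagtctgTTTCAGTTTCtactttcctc
*Ifit3b*, plus strand, chr19:34607793-34607822: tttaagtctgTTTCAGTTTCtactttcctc
*Oas1a*, minus strand, chr5:120907526-120907555: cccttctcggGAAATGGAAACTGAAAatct
*Oas3*, minus strand, chr5:120777715-120777744: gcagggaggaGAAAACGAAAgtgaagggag
*Rsad2*, minus strand, chr12:26456553-26456582: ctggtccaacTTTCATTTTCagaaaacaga
*Stat2*, plus strand, chr10:128270266-128270295: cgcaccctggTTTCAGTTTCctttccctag
The stretch before *Isg15* holds 3 overlapping cores and that before *Oas1a* holds 2, and the windows of *Ifit3* and *Ifit3b* have the same letters. The core was found on either strand in 13 of the 28 promoters (46.4%), and in 1079 of the 27025 promoters of all genes in the table of promoters (3.99%). Beside those printed, it was found before *Oas1g*, *Bst2*, *Trim30a* and *Phf11b*, and just after the start of *Ifitm3*. *Ifit1*, *Ifit3* and *Ifit3b* each had 1 more core, farther before the start, that is not shown. The core was not found for *Herc6*, *Ifit2*, *Oasl1*, *Oasl2*, *Cmpk2*, *Samd9l*, *Irf7*, *Irf9*, *Parp12*, *Dtx3l*, *Ifi35*, *Ifi44*, *Xaf1*, *Lgals3bp* and *Epsti1*. The GAS core TTCNNNGAA, an element of interferon gamma signalling, was found in 5 of the 28 promoters (17.9%) and in 9.55% of all promoters. It was searched as 1 pattern that reads the same on both strands, and *Oas1a*, *Bst2* and *Ifitm3* held both cores.

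*Resf1* (ENSMUSG00000032712) was read first as a check of the labels. Its normalized value was 4215, 4397, 3881, 4487 and 3517 in wildtype tumors 1 to 5, and 4029, 3066, 3686, 3392 and 3409 in gene trap tumors 1 to 5. The gene trap tumors were lower on average and the groups overlapped, since gene trap tumors 1 and 3 lay above wildtype tumor 5. The log2 fold change of gene trap against wildtype was -0.22 (95% interval -0.42 to -0.02), with an unadjusted p of 0.0313 and a Benjamini-Hochberg adjusted p of 0.9997 in limma, and an exact two-sided permutation test gave p = 0.0635. The difference in *Resf1* on which the question rests was therefore small. Without gene trap tumor 2 the log2 fold change was -0.17 (unadjusted p = 0.0684 in limma). Left out singly, wildtype tumors 1, 2 and 4 gave an unadjusted p of 0.0610, 0.0715 and 0.0781 in limma. Gene trap tumors 4 and 5 gave 0.0602 and 0.0589, and the remaining tumors gave values under 0.05.

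The deposited values were already normalized between tumors, their totals lay between 31995078 and 42153593 per tumor, and no value was 0, so the sequencing depth of a tumor is unknown and no interval that needs it is given. All 7 luminal epithelial markers (among them *Epcam*, *Krt8* and *Krt18*) were measured, with a summed value of 79693 to 104992 in wildtype tumors and 83091 to 112384 in gene trap tumors, so markers of the labelled tissue were present in each tumor. Gene trap tumor 2 stood apart from the others over all genes, at 91.8 on the first principal component against -18.6 to -4.78 for the other 9 tumors, and the summary of the set is given with and without it. Nothing in the labels says if a tumor is 1 animal, so the p-values describe the spread between these tumors.

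None of the 37 genes differed between the groups after adjustment over all genes (limma, Benjamini-Hochberg, smallest adjusted p 0.9997), and 0 of all 21034 genes did (0%). Most of the interferon stimulated genes had lower, not higher, mean log2 values in gene trap tumors. Of the 37, 33 had a log2 fold change below 0 and 4 above it, where 48.6% of all genes lay below 0. The median over the 37 genes was -0.21, between -0.60 (*Rsad2*) and 0.20 (*Ifi27l2a*), and the median over all genes was 0.0047. At an unadjusted p under 0.05, 2 of the 37 passed, *Herc6* and *Oas3*, both lower in gene trap tumors, where 2.28% of all genes passed in either direction, 0.956% lower and 1.32% higher. In all 37 genes the values of the groups overlapped, and 0.528% of all genes had groups that did not overlap.

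The size of the differences can be bounded gene by gene. The upper end of the 95% interval lay under a 1.5-fold rise in gene trap tumors for 35 of the 37 genes, and under a 2-fold rise for 36. The exceptions to the first were *Phf11b*, whose upper end was 1.51-fold, and *Ifi27l2a*, whose upper end was 2.11-fold and which is the 1 exception to the second. These intervals come from the fit with all tumors and are not adjusted for the number of genes. Without wildtype tumor 2 the log2 fold change shrank by over 1.5 times or changed sign in 27 of the 37 genes. The highest upper end in that fit was 1.11 on the log2 scale, and the 2 counts were not made there. For 35 of the 37 genes the difference of the group means was smaller than the SD of the wildtype tumors. Wildtype tumor 2, the highest tumor in 30 of the 37 genes, adds to that SD. The same count was not made over all genes, so it is not read as a trait of the set.

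**Figure D1:**
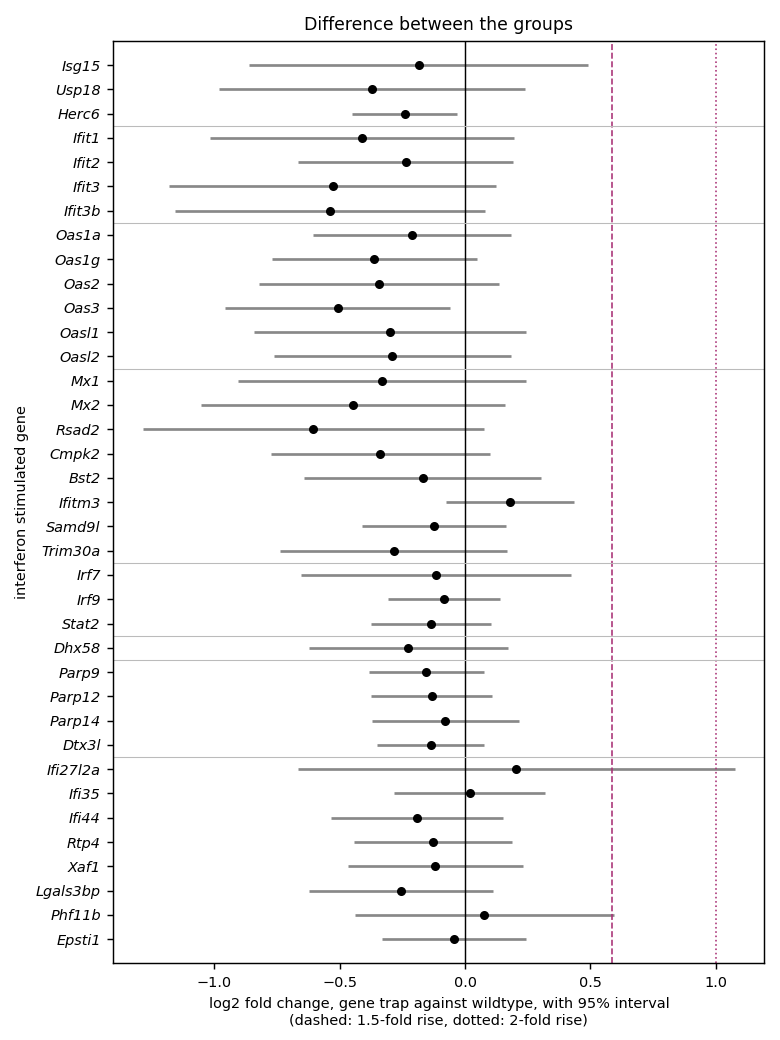
Log2 fold change of gene trap against wildtype tumors (x axis) with its 95% interval from limma (5 against 5 tumors) for the 37 interferon stimulated genes (y axis), grouped by role. Of the points, 33 lie left of 0, and the intervals of 35 genes include 0, all but those of *Herc6* and *Oas3*.

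The lower values of the set depended on a few tumors. Without wildtype tumor 2, 29 of the 37 genes were lower in gene trap tumors, the median log2 fold change was -0.08, and none had an unadjusted p under 0.05. Without gene trap tumor 2 the median was -0.17, with 35 genes lower and 1 gene at an unadjusted p under 0.05. With both left out, an alternative chosen after the data were seen, 27 genes were lower and the median was -0.04. The count of the 37 genes with an unadjusted p under 0.05 was 9 without wildtype tumor 1, 1 without wildtype tumor 5, 0 without gene trap tumor 3 and 6 without gene trap tumor 4, in limma each time, and the adjusted count was 0 throughout. Over all 21034 genes the unadjusted count also moved, to 633, 450, 614 and 694 in the same fits. It was 602 without wildtype tumor 2, 397 without gene trap tumor 2 and 479 with all tumors. Without gene trap tumor 3 the median of the 37 genes was -0.14. Gene by gene, the log2 fold change shrank by over 1.5 times or changed sign in 27 of the 37 genes without wildtype tumor 2, in 17 without gene trap tumor 2 and in 10 without gene trap tumor 3.

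Read by tumor, most of the set moved together in certain tumors of both genotypes. The level of the set in a tumor was taken as the mean z score, that is, the mean over the 37 genes of each gene's distance from its own mean in SDs of log2(value + 1). It was -0.85, 1.64, 0.35, 0.12 and 0.20 in wildtype tumors 1 to 5, and 0.01, -0.84, -1.10, 0.43 and 0.04 in gene trap tumors 1 to 5. Wildtype tumor 2 was the highest, and the 3 lowest tumors were gene trap tumors 3 and 2 and wildtype tumor 1. The group means were 0.292 ± 0.889 (SD, n = 5) for wildtype and -0.292 ± 0.646 (SD, n = 5) for gene trap, and their difference of -0.585 was under both SDs. With the z scores computed anew, the difference was -0.309 without wildtype tumor 2, -0.474 without gene trap tumor 2 and -0.147 without both.

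Wildtype tumor 2 held the highest value of 30 of the 37 genes, where it held the highest value of 10.3% of all genes. The exceptions were *Herc6*, *Oas1g*, *Ifitm3*, *Ifi27l2a*, *Lgals3bp*, *Phf11b* and *Epsti1*. Its value was a median of 1.49 times the median of the other wildtype tumors, from 0.712 times for *Ifi27l2a* to 2.30 times for *Isg15*, against a median of 1.00 times over all genes. It exceeded 1.5 times in 18 of the 37 genes and in 4.48% of all genes. At the other end, gene trap tumors 2 and 3 each held the lowest value of 15 genes, and wildtype tumor 1 that of 4. These 3 tumors together held the lowest value of 34 of the 37 genes, and of 38.2% of all genes. Gene trap tumor 2 alone held the lowest value of 21.8% of all genes, gene trap tumor 3 that of 7.98%. Gene trap tumor 2 also held the highest value of 22.4% of all genes, and of 2 of the 37, *Ifi27l2a* and *Epsti1*.

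**Figure D2:**
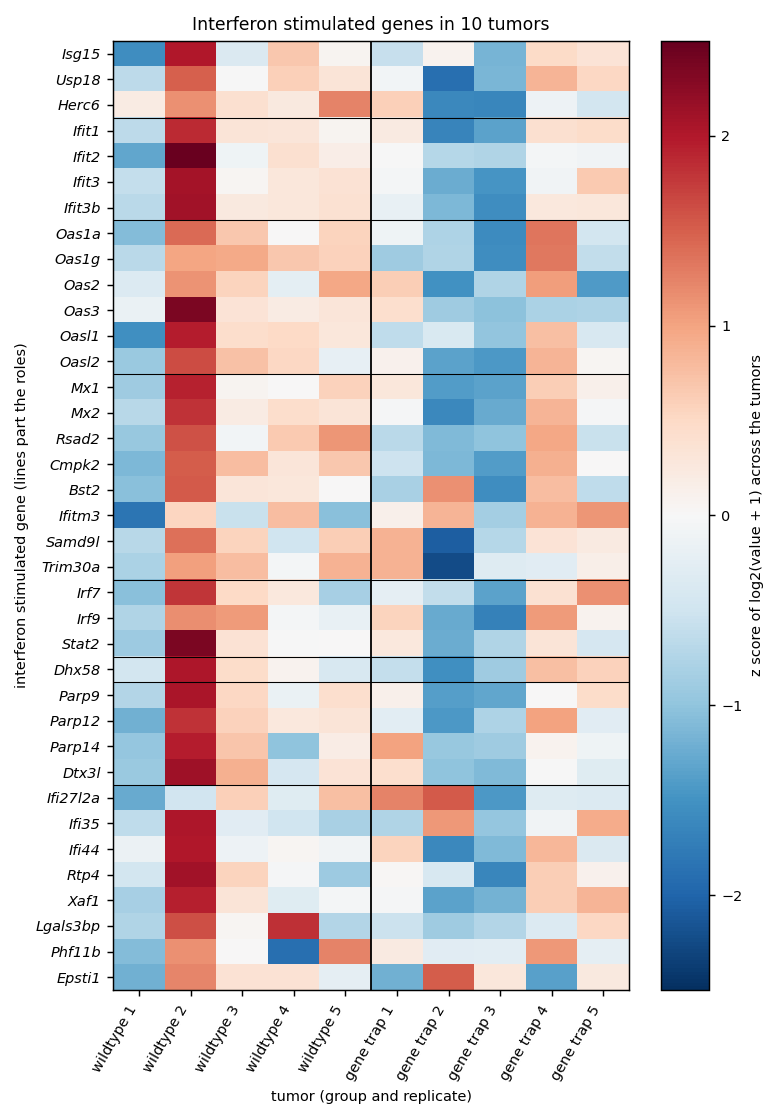
Z score of log2(value + 1) across the 10 tumors (color) for each of the 37 genes (rows, grouped by role) in each tumor (columns, wildtype left and gene trap right of the vertical line). Wildtype 2 is red in nearly every row, and wildtype 1, gene trap 2 and gene trap 3 are mostly blue, with mean z scores of 1.64, -0.85, -0.84 and -1.10.

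The spread between tumors was wide for genes of this abundance. The SD of the log2 values over the 10 tumors had a median of 0.36 in the 37 genes, from 0.17 (*Irf9*) to 0.73 (*Ifi27l2a*). Over the 14122 genes whose mean reached 100, which 36 of the 37 genes also reached, the median was 0.18. The highest tumor was a median of 2.16 times the lowest, from 1.39 times for *Irf9* to 4.48 times for *Ifi27l2a*, against 1.5 times in the genes whose mean reached 100. The 13 genes with an ISRE core had a median SD of 0.39 and a median log2 fold change of -0.28. The 15 with a promoter entry and no core had 0.27 and -0.14. The ranges overlapped, with log2 fold changes from -0.60 to 0.18 with a core and from -0.34 to 0.02 without. The SDs ran from 0.19 to 0.64 and from 0.17 to 0.45. Among the 13 are *Ifit3* with *Ifit3b* and *Oas1a* with *Oas1g*, pairs that share much sequence. The difference between these groups of genes was not tested. The value of wildtype tumor 2 against the other wildtype tumors had a median of 1.49 times in both groups of genes.

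*Isg15*, *Usp18* and *Herc6* belong to the ISG15 system, in which a ubiquitin-like protein (ISG15) is joined to other proteins by the ligase HERC6 in the mouse and removed by the protease USP18. *Herc6* was measured at 787, 890, 809, 791 and 901 in wildtype tumors 1 to 5, and at 830, 622, 621, 755 and 724 in gene trap tumors 1 to 5. All gene trap tumors but the first were below the lowest wildtype tumor. The group means were 836 ± 55.4 and 710 ± 89.5 (SD, n = 5 each), and the log2 fold change was -0.24 (standard error 0.10, 95% interval -0.45 to -0.03, unadjusted p = 0.0281 and adjusted p = 0.9997 in limma). Of the 3 genes it had the narrowest range over the tumors, and 23.8% of the 50-base words of its transcript also occur in another annotated gene (*Gm45193*), so reads could be divided between them. Its unadjusted p was 0.0622 without wildtype tumor 2, 0.0661 without wildtype tumor 5, 0.0578 without gene trap tumor 2 and 0.0740 without gene trap tumor 3.

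*Isg15* was measured at 260, 1034, 412, 616 and 488 in wildtype tumors, and at 381, 493, 301, 572 and 542 in gene trap tumors. Its lowest and its highest value were both in wildtype tumors, and all 5 gene trap tumors lay between them. The log2 fold change was -0.19 (95% interval -0.86 to 0.49), and 0.07 without wildtype tumor 2. *Usp18*, which also blocks the interferon receptor, had a log2 fold change of -0.37 (95% interval -0.98 to 0.24), -0.22 without wildtype tumor 2 and -0.17 without gene trap tumor 2.

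The IFIT proteins act against viral RNA and its translation. Their 4 genes lie near each other on chromosome 19, and all 4 had a log2 fold change below 0, with a median of -0.47 that became -0.24 without wildtype tumor 2. *Ifit1* was measured at 793, 2056, 1147, 1141 and 1041 in wildtype tumors, and at 1106, 547, 616, 1180 and 1209 in gene trap tumors. Wildtype tumor 2 was well above the others and gene trap tumors 2 and 3 were below all of them, while the remaining gene trap tumors were level with wildtype tumors 3 to 5. For *Ifit1* the log2 fold change was -0.41 (95% interval -1.02 to 0.19), -0.21 without wildtype tumor 2 and -0.24 without gene trap tumor 2.

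*Ifit3b* had the smallest p of the family. It was measured at 293, 887, 423, 428 and 448 in wildtype tumors, and at 355, 244, 206, 426 and 429 in gene trap tumors. As in *Ifit1*, wildtype tumor 2 stood alone at the top and gene trap tumors 2 and 3 were the lowest. This gave a log2 fold change of -0.54 (95% interval -1.16 to 0.08, unadjusted p = 0.0826 and adjusted p = 0.9997 in limma). *Ifit3* was measured at 614, 1884, 808, 888 and 919 in wildtype and at 775, 470, 426, 758 and 1038 in gene trap tumors, with a log2 fold change of -0.53 (95% interval -1.18 to 0.12). Of the 50-base words of the *Ifit3* transcript 51.2% occur in *Ifit3b*, so that these 2 genes are not separate evidence. *Ifit2* had -0.24 (95% interval -0.66 to 0.19), and its 5 gene trap tumors lay close together, from 583 to 703.

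The OAS proteins sense double-stranded RNA and make 2′-5′ oligoadenylates that activate RNase L, and the mouse OASL proteins are their relatives. All 6 genes, which lie on chromosome 5, had a log2 fold change below 0, from -0.51 (*Oas3*) to -0.21 (*Oas1a*), with a median of -0.32 and of -0.21 without wildtype tumor 2. *Oas3* was measured at 118, 244, 136, 131 and 135 in wildtype tumors, and at 139, 95, 92, 98 and 99 in gene trap tumors. All gene trap tumors except the first were below the lowest wildtype tumor, and the first was above all wildtype tumors but the second. The log2 fold change was -0.51 (standard error 0.21, 95% interval -0.96 to -0.06, unadjusted p = 0.0290 and adjusted p = 0.9997 in limma). Without wildtype tumor 2 it was -0.33 (unadjusted p = 0.0654), and its unadjusted p was 0.0623, 0.0538 and 0.0530 without gene trap tumors 3, 4 and 5.

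*Oasl2*, with the highest mean of the family, was measured at 717, 1495, 1157, 1089 and 882 in wildtype tumors, and at 968, 638, 621, 1193 and 952 in gene trap tumors. The groups overlapped over most of their range, with a log2 fold change of -0.29 (95% interval -0.76 to 0.18), -0.16 without wildtype tumor 2 and -0.19 without gene trap tumor 2. *Oas1a* and *Oas1g* share 57.6% and 54.7% of their 50-base words, nearly all with each other, so their values are uncertain as separate genes. Their log2 fold changes were -0.21 (95% interval -0.61 to 0.18) and -0.36 (95% interval -0.77 to 0.05). In *Oas1g* the highest tumor of all was gene trap tumor 4, at 337. The rest of that group ran from 164 to 207, and the wildtype tumors from 204 to 311.

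Among the other antiviral effectors 7 of 8 genes were lower and *Ifitm3* was higher, with a median of -0.31, and of -0.18 without wildtype tumor 2. *Rsad2* encodes viperin, which makes a chain-terminating nucleotide, and its neighbour *Cmpk2* on chromosome 12 encodes a kinase that supplies the substrate. *Rsad2* had the lowest log2 fold change of the 37 genes. It was measured at 451, 1402, 667, 916 and 1127 in wildtype tumors, and at 510, 419, 440, 1060 and 536 in gene trap tumors. Wildtype tumors 2, 5 and 4 and gene trap tumor 4 made up the high end, and wildtype tumor 1 lay among the other gene trap tumors. The groups differed by a log2 fold change of -0.60 (95% interval -1.28 to 0.07, unadjusted p = 0.0765 in limma), and -0.42 without wildtype tumor 2, -0.83 without wildtype tumor 1 and -0.84 without gene trap tumor 4.

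*Ifitm3*, a membrane protein that blocks the entry of viruses, went the other way. It was measured at 1997, 2841, 2417, 2943 and 2245 in wildtype tumors, and at 2676, 2973, 2313, 2980 and 3089 in gene trap tumors. Of the gene trap tumors 3 were above every wildtype tumor, and wildtype tumor 2 did not stand out. It had a log2 fold change of 0.18 (95% interval -0.08 to 0.44, unadjusted p = 0.150 in limma), and 10% of its words occur in other annotated genes. The remaining effectors are the GTPases *Mx1* and *Mx2* (-0.33 and -0.45), tetherin *Bst2* (-0.17), *Cmpk2* (-0.34), *Samd9l* (-0.12) and *Trim30a* (-0.28), each with an interval that includes 0.

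**Figure D3:**
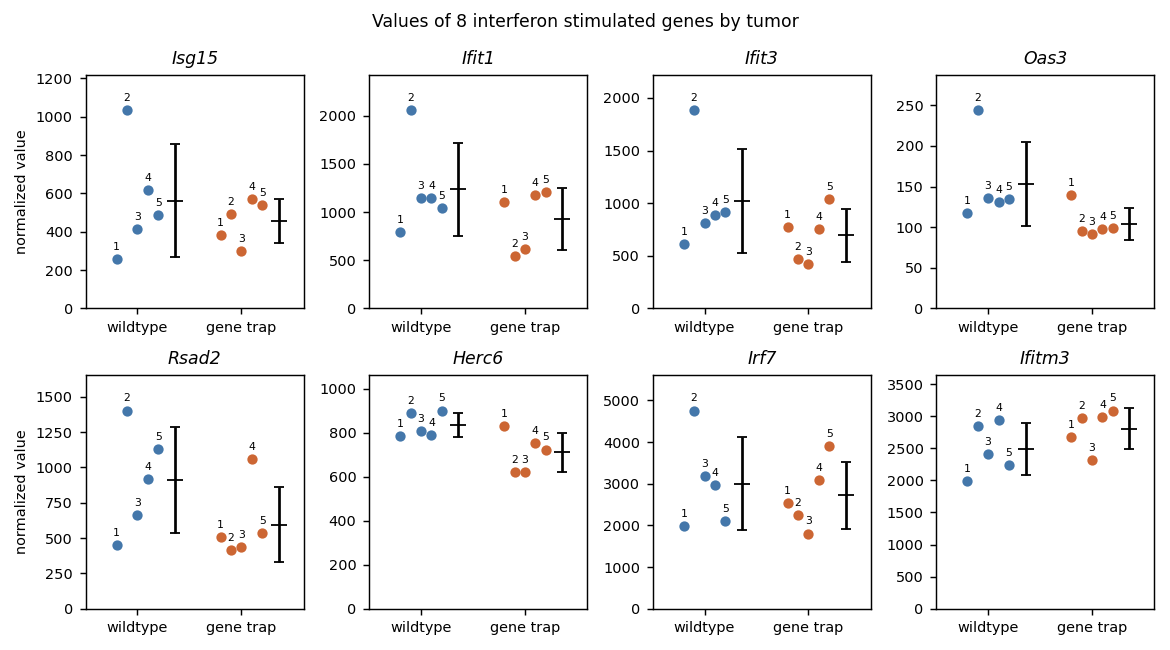
Normalized value (y axis, linear from 0) of 8 of the genes in each tumor, numbered by replicate, with the mean and SD of each group (bars beside the points, n = 5). Wildtype tumor 2 stands above the rest in *Isg15*, *Ifit1*, *Ifit3* and *Oas3*, for example at 1884 in *Ifit3*, and not in *Ifitm3*.

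The factors that carry the signal are themselves induced by it, and the 3 in the set were all lower, with a median of -0.12, and of -0.04 without wildtype tumor 2. *Irf7*, which amplifies the transcription of interferon genes, was measured at 1982, 4758, 3185, 2965 and 2112 in wildtype tumors, and at 2550, 2262, 1806, 3080 and 3906 in gene trap tumors. Wildtype tumor 2 and gene trap tumor 5 were the highest 2 tumors, and the groups overlapped throughout. The log2 fold change was -0.12 (95% interval -0.65 to 0.42), and 0.07 without wildtype tumor 2. *Stat2*, a subunit of ISGF3, was measured at 929, 1421, 1097, 1045 and 1049 in wildtype and at 1082, 891, 949, 1092 and 990 in gene trap tumors. Apart from wildtype tumor 2 all tumors lay close together, and the log2 fold change was -0.14 (95% interval -0.38 to 0.10), and -0.04 without wildtype tumor 2. *Irf9*, the DNA-binding subunit of ISGF3, had -0.08 (95% interval -0.31 to 0.14).

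*Dhx58* encodes LGP2, a helicase that tunes RNA sensing by RIG-I and MDA5. It was measured at 570, 1007, 703, 645 and 578 in wildtype tumors, and at 552, 445, 515, 753 and 722 in gene trap tumors. The first 3 gene trap tumors were below all wildtype tumors and the other 2 above all but wildtype tumor 2, and the log2 fold change was -0.23 (95% interval -0.62 to 0.17). It was -0.09 without wildtype tumor 2 and -0.13 without gene trap tumor 2.

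*Parp9* and *Dtx3l*, whose proteins form a complex, lie beside each other and beside *Parp14* on chromosome 16. *Dtx3l*, a ubiquitin ligase, was measured at 3104, 4442, 3845, 3296 and 3607 in wildtype tumors, and at 3638, 3073, 3039, 3457 and 3341 in gene trap tumors. *Parp9*, its partner, was measured at 2521, 3614, 2960, 2710 and 2925 in wildtype tumors, and at 2819, 2316, 2342, 2775 and 2937 in gene trap tumors. In both genes wildtype tumor 2 was the highest and gene trap tumors 2 and 3 were the lowest. The log2 fold changes were -0.14 for *Dtx3l* (95% interval -0.35 to 0.08) and -0.16 for *Parp9* (95% interval -0.38 to 0.07). Without wildtype tumor 2 they were -0.06 and -0.08, and the median of the 4 genes of this role went from -0.13 to -0.06. Within a tumor the ratio of *Parp9* to *Dtx3l* varied only from 0.754 to 0.879. *Parp12* and *Parp14*, ADP-ribosyltransferases, had log2 fold changes of -0.13 and -0.08, and that of *Parp14* was 0.02 without wildtype tumor 2.

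The remaining 8 induced genes were mixed, with 5 lower, 3 higher and a median log2 fold change of -0.08, and 0.01 without wildtype tumor 2. *Lgals3bp*, a secreted glycoprotein, was measured at 1643, 2775, 1960, 2910 and 1645 in wildtype tumors, and at 1718, 1589, 1647, 1799 and 2180 in gene trap tumors. Wildtype tumors 2 and 4 were high and the rest lay close together across the groups, and the log2 fold change was -0.26 (95% interval -0.62 to 0.11), and -0.16 without wildtype tumor 2. *Ifi27l2a*, a small membrane protein of the IFI27 family, was the most variable of the 37 genes. It was measured at 229, 341, 586, 370 and 633 in wildtype tumors, and at 815, 943, 211, 370 and 365 in gene trap tumors. The order of tumors was unlike that of most of the other genes, with gene trap tumors 2 and 1 at the top and wildtype tumor 2 among the low ones, and the log2 fold change was 0.20 (95% interval -0.67 to 1.08), and -0.05 without gene trap tumor 2.

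Of the others, *Ifi44* had a log2 fold change of -0.19, *Rtp4* of -0.13, *Xaf1*, a cofactor in cell death, of -0.12 and *Epsti1* of -0.04. *Ifi35* had 0.02 and *Phf11b* 0.08, the latter at a low level of 26.0 to 56.0 in all 10 tumors and with 47.0% of its words in other annotated genes. None of these 6 had an unadjusted p under 0.05 in limma.

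The genes before and beside the members in the pathway were read from lists, and limma called 0 genes of any list at an adjusted p under 0.05. Of 21 interferon ligands only *Ifnk* and *Ifnz* had a row, at values of 4.17 to 13.1 and 2.02 to 14.7, and neither passed the filter. The 6 interferon receptor genes all passed, 5 lower and 1 higher, with a median of -0.05, and *Ifnar1* and *Ifnar2*, the pair that type I interferons bind, had log2 fold changes of -0.04 and -0.06. The 10 kinases and factors were 3 lower and 7 higher, with a median of 0.02. The 9 inhibitors of the signal, of which *Usp18* is also a member of the set, were 3 lower and 6 higher, with a median of 0.02. The 15 nucleic acid sensors and their adaptors were 8 lower and 7 higher, with a median of -0.03. Among the sensors *Tlr3* was the 1 gene with an unadjusted p under 0.05 in limma.

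*Tlr3*, a receptor for double-stranded RNA, had a log2 fold change of -0.22 (unadjusted p = 0.0334 in limma), and its unadjusted p lay between 0.0125 and 0.0829 in the fits that left out 1 tumor. Of 8 genes of retroelement silencing, *Resf1* among them, 2 were lower and 6 higher, and *Resf1* was the 1 with an unadjusted p under 0.05.

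Genes induced mainly by interferon gamma stood beside the type I set. Of 18 listed, 17 were tested, 15 were lower and 2 higher, and the median log2 fold change was -0.22. It was -0.10 without wildtype tumor 2, and -0.10 without gene trap tumor 2. At an unadjusted p under 0.05 there were 3, *Gbp2*, *Gbp3* and *Gbp6*, which encode guanylate binding proteins that attack intracellular pathogens. For *Gbp3* the unadjusted p in limma was 0.0548 without wildtype tumor 5, 0.0615 without gene trap tumor 2 and 0.0678 without gene trap tumor 3. *Gbp2* was measured at 1237, 1478, 1709, 1464 and 1336 in wildtype tumors, and at 1334, 997, 1029, 1139 and 1147 in gene trap tumors. All gene trap tumors but the first were below every wildtype tumor. Its log2 fold change was -0.35 (standard error 0.10, unadjusted p = 0.00507 and adjusted p = 0.9997 in limma), and it stayed between -0.42 and -0.29 in the fits that left out 1 tumor.

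**Figure D4:**
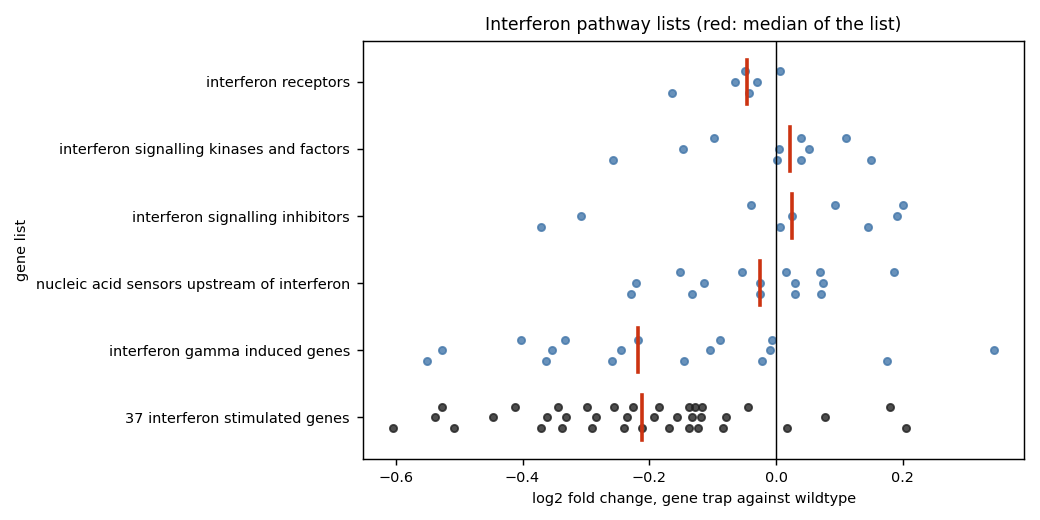
Log2 fold change of gene trap against wildtype tumors (x axis) of each tested gene in 5 interferon pathway lists and in the set of 37 genes (y axis), with the median of each list in red. The medians of the interferon gamma list (-0.22) and of the 37 genes (-0.21) lie left of 0, and those of the other lists lie between -0.05 and 0.02.

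The members were also set against *Resf1* itself over the 10 tumors, because *Resf1* varied within each genotype. The correlation of a gene's log2 value with that of *Resf1* had a positive sign in 31 of the 37 genes, the direction in which a tumor with less *Resf1* has less of the RNA, with a median Pearson's r of 0.373 and a median Spearman's rho of 0.224. Over all genes 48.9% had a positive sign, and the median r was -0.011. None passed the threshold after adjustment over the 37 genes (permutation test with 100000 resamples, smallest Benjamini-Hochberg adjusted p 0.513 for r and 0.858 for rho). *Oas3* had the largest r, 0.678 (permutation p = 0.0228), with a rho of 0.624 (permutation p = 0.0597). *Ifi27l2a* had the lowest, -0.389 (permutation p = 0.264), with a rho of -0.309 (permutation p = 0.388). Without gene trap tumor 2 and wildtype tumor 4, the tumors farthest from the median of *Resf1*, the median r was 0.199 over 8 tumors and 28 genes had a positive sign in both cases, while *Oas1g*, *Rsad2* and *Cmpk2* turned negative and *Bst2*, *Ifi35* and *Epsti1* turned positive. The 10 points include both genotypes, and 5 tumors of 1 genotype are too few for a correlation within it.

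**Figure D5:**
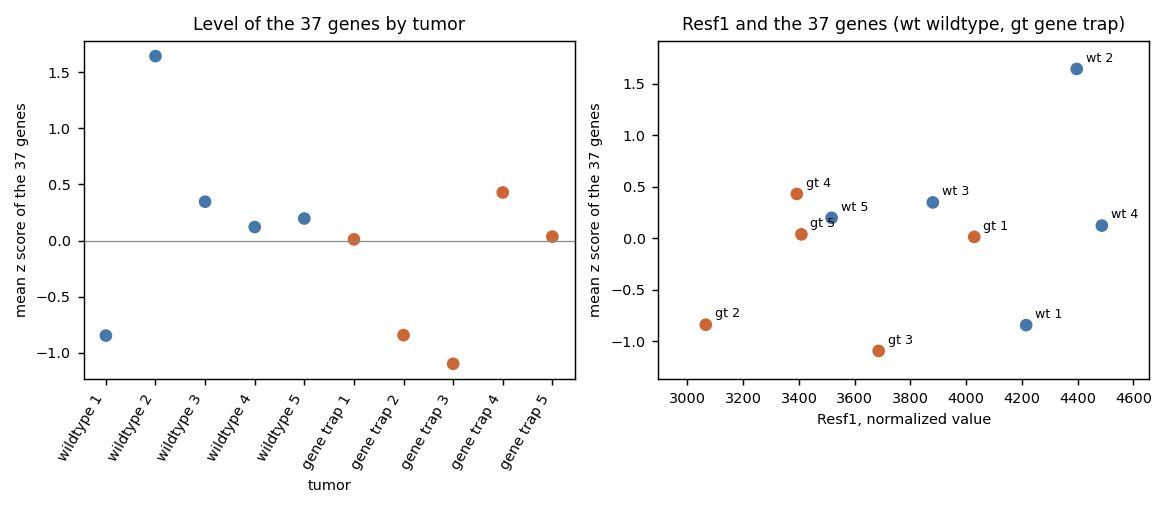
Left, mean z score of the 37 genes (y axis) in each tumor (x axis), wildtype in blue and gene trap in orange, and right, the same score against the normalized value of *Resf1* (x axis). Wildtype tumor 2 is the highest at 1.64, and wildtype tumor 1, with a *Resf1* value of 4215, lies as low as gene trap tumor 2, with 3066.

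Bulk RNA of a tumor cannot tell fewer cells of a type from less RNA per cell, so marker lists of 12 cell types were read beside the set. The mean z score of basal epithelial markers, such as *Krt5*, *Krt14* and *Acta2*, was lower in gene trap tumors (-0.464 ± 0.377 against 0.464 ± 0.400 in wildtype tumors, SD, n = 5 each, exact two-sided permutation p = 0.00794, the smallest that 5 against 5 tumors allow). Over the 12 lists the adjusted p was 0.0952. The marker lists were chosen with earlier results of these data known, so neither p comes from lists fixed beforehand. All 7 basal markers were lower, with a summed value of 7242 to 9914 in wildtype and 5426 to 7208 in gene trap tumors. Wildtype tumor 2 was the highest both in this score and in the interferon stimulated genes, but other tumors were not ordered alike. Gene trap tumor 4, next in the interferon stimulated genes (0.43), was the lowest in the basal score (-0.964). Gene trap tumor 3, the lowest in those genes (-1.10), had the highest basal score of its group (-0.0589). A link between the scores was not tested. The other 11 lists gave exact p-values from 0.373 to 1.

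T cell markers were the highest in gene trap tumor 3 (1.86) and wildtype tumor 1 (1.33). Both are among the 3 tumors with the lowest interferon stimulated genes. Gene trap tumor 2, the other of these 3, had a T cell score of -0.503. The lowest T cell score was in gene trap tumor 4 (-1.02), whose interferon stimulated genes were next to the highest (0.43). All 10 T cell markers had a row and 9 passed the filter, and their summed value was 136 to 455 in wildtype and 118 to 638 in gene trap tumors. Macrophage markers, 10 of 10 tested, were the highest in wildtype tumor 5 (1.20) and summed to 10406 to 16616 in wildtype and 10937 to 15073 in gene trap tumors. Plasmacytoid dendritic cell markers, 5 of 6 tested, had scores from -0.367 to 0.567 in wildtype and from -0.439 to 0.645 in gene trap tumors, and *Bst2*, a member of the set, is 1 of them. No defining marker with a row was at 0 in any tumor. The part of these cells in the level of the interferon stimulated genes was not tested.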

How the data were processed

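The authors deposited 1 table for these tumors, a signal per gene in which median ratio normalization had already been applied, and this form was checked on the values, whose median ratio to the geometric mean lay between 1.005 and 1.006 in every column. The submitters' processing notes name Partek, STAR 2.7.8a, DESeq2 and the build mm39, and the libraries were TruSeq Stranded Total RNA. The counter, its strand setting and the annotation are not given in the sources used here. The labels describe 16 tumors, 8 per group. Of 16 columns 10 carried a name that fits 1 tumor, and the 6 others, named by animal numbers, were left out.

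Gene IDs were matched to symbols for 22899 of 23609 rows. A pseudocount of 1 was added before the log2 was taken, so fold changes are on the log2(value + 1) scale and understate changes of low genes. Genes with a mean of at least 10 were fitted with limma 3.58.1 (R 4.3.3, empirical Bayes with a mean-variance trend, group as the only factor) and p-values were adjusted by Benjamini-Hochberg over all 21034 genes. For scores and for *Resf1*, exact two-sided permutation tests used the 252 arrangements of 5 and 5 tumors. Correlations were tested with 100000 resamples. The fit was also run on simulated data with independent noise for each gene. The genes described here vary together between tumors, so no result rests on that simulation. Shared sequence was counted as 50-base words of GENCODE M21 transcripts, and figures were drawn with matplotlib 3.10.9.

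The members, roles, pathway lists and marker lists were chosen with earlier results of these data known. Members given in every tumor are, in each role, those with the highest mean and the smallest unadjusted p. *Isg15*, *Ifit3* and *Ifi27l2a* were added after their values were seen. Pathway genes named with values are those with the smallest p of their list, and other examples were picked with their values known. Values of 1 pathway gene are not reported here. The alternatives tried were other pseudocounts and filters, quantile and upper quartile scaling, weights per tumor, no variance trend, the replicate number as a block and leaving out tumors.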

Additional observations from a re-analysis of the deposited data

Results flagged for a closer look

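A tumor was marked for a closer look where, within its group of 5, it lay farther from the nearest tumor than Dixon's 95% limit allows, and chance marks about 1 in 20 groups. Of 102 groups examined 13 were marked, where 5.1 are due to chance, and 11 of them were among the 74 groups of the 37 interferon stimulated genes. These groups are not independent, since the genes vary together between tumors.

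Of the 11, 6 were wildtype tumor 2 above the other wildtype tumors. It was at 2056 for *Ifit1* (others 793 to 1147), 1884 for *Ifit3* (others 614 to 919), 887 for *Ifit3b* (others 293 to 448), 244 for *Oas3* (others 118 to 136), 1715 for *Ifi35* (others 1085 to 1182) and 1656 for *Ifi44* (others 1077 to 1120). *Ifit3* and *Ifit3b* share much of their sequence.

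Wildtype tumor 1 lay below the other wildtype tumors for *Oas1g*, at 204 (others 281 to 311). Gene trap tumor 4 lay above the other gene trap tumors for *Oas1g* at 337 (others 164 to 207), for *Oasl1* at 258 (others 149 to 180) and for *Rsad2* at 1060 (others 419 to 536). Gene trap tumor 1 lay above the others for *Oas3*, at 139 (others 91.5 to 98.6).

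Among the cell type scores, gene trap tumor 3 had a B and plasma cell marker score of 1.90 (others -0.853 to -0.225), from 2 tested markers, and gene trap tumor 1 had a fibroblast marker score of 1.74 (others -0.407 to -0.229).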

How the results depend on the processing

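Under 20 alternatives no gene of the 37, and none of all genes, had an adjusted p under 0.05 in limma. The median log2 fold change of the 37 genes stayed below 0, between -0.29 and -0.04. Of the 37 genes 2 had an unadjusted p under 0.05 in the main fit. The count was 3 with weights per tumor, and 0 with the replicate block or with both tumors numbered 2 left out (chosen after seeing the data). It was from 0 to 9 when 1 tumor was left out, and 2 under the other alternatives. Over all genes that count was 479, 307 to 694 when 1 tumor was left out. The *Resf1* log2 fold change of -0.22 was past an unadjusted p of 0.05 except with weights per tumor (-0.18, unadjusted p = 0.0542 in limma), without a variance trend (-0.22, unadjusted p = 0.0544 in limma), with both tumors numbered 2 left out (-0.15, unadjusted p = 0.135 in limma) and in part of the fits that left out 1 tumor (-0.28 to -0.17), and the cause was not tested. With the replicate block its p was 0.0446 in limma. Same-numbered tumors did not clearly deviate together (correlations from -0.156 to 0.149, and 1 of 5 tumors correlated best with its own number). The 5 correlations are too few to exclude a pairing by number.

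Of 739 values of single genes, 687 kept sign and side of the threshold and 26 changed sign. With weights per tumor *Ifi27l2a* was -0.029 and *Ifi35* -0.031. With both tumors numbered 2 left out *Isg15* was 0.035, *Samd9l* 0.043, *Irf7* 0.12, *Dhx58* 0.012, *Parp14* 0.070, *Ifi27l2a* -0.11, *Ifi44* 0.018 and *Xaf1* 0.076. With 1 tumor left out *Isg15* ranged from -0.43 to 0.072, *Irf7* from -0.26 to 0.068, *Parp14* from -0.15 to 0.024, *Epsti1* from -0.13 to 0.022, *Ifi27l2a* from -0.050 to 0.49, *Ifi35* from -0.043 to 0.14 and *Phf11b* from -0.076 to 0.19.

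The depth of the tumors is unknown. In the main fit, 5 tumors per group with this spread leave upper ends of the intervals of up to 1.08 on the log2 scale. Over the alternatives the highest upper end was 1.29, without gene trap tumor 3. The basal epithelial score difference lay between -1.04 and -0.810 with 1 tumor left out.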
